A study of Homo sapiens with 12 samples.

Results

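Amino acid transporters carry the substrates of protein, glutathione and heme synthesis across the plasma membrane, and 10 genes of this kind are described here. They are SLC7A11, SLC3A2, SLC7A5, SLC7A1, SLC38A1, SLC38A2, SLC1A4, SLC1A5, SLC43A1 and SLC6A9, taken by symbol from a table of 28278 genes. The set was drawn up because SLC7A11 was among the genes that fell furthest under butyrate in cells without HRG1, so the set was chosen by the fall of SLC7A11 in that contrast, whose values are given below without a test. All 10 genes had counts in every library, from 61 to 21008, and all 10 were among the 15805 genes that passed the filter on low counts.

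The cells were K562, a human erythroleukaemia line that makes fetal hemoglobin and matures further along the red cell lineage when treated with sodium butyrate, an inhibitor of histone deacetylases. The 4 groups of 3 libraries were untreated WT cells, butyrate-treated WT cells, untreated HRG1-KO cells and butyrate-treated HRG1-KO cells. HRG1, the product of SLC48A1, is a heme transporter of the endolysosomal membrane. Treated cells received 0.75 mM sodium butyrate 24 h after plating and again 48 h later, and RNA was taken 6 h after that. Sampling is labelled day 8 of differentiation. All groups grew in RPMI medium with heat-inactivated serum, antibiotics, glutamine and added non-essential amino acids. How the knockout was made, the number of clones and whether replicates were separate cultures are not given in the sources used here, so p-values measure the spread between these libraries, which may be technical. The groups are bulk cultures, in which fewer cells of a kind and less RNA per cell cannot be told apart.

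Several of these transporters work as a circuit. The product of SLC7A11, xCT, pairs with the heavy chain CD98, the product of SLC3A2, to exchange intracellular glutamate for extracellular cystine, which supplies cysteine for glutathione. The product of SLC7A5, LAT1, pairs with the same heavy chain and brings in leucine and other large neutral amino acids in exchange for glutamine that the sodium-coupled carriers of the SLC1 and SLC38 families have accumulated. The transcription factor ATF4 raises many of these genes when amino acids are short or when the kinase HRI (EIF2AK1), which senses heme, is active. NRF2 and BACH1 act in opposite directions on SLC7A11, and in red cell precursors glycine carried by GLYT1, the product of SLC6A9, is a substrate for heme.

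Promoter sequences are shown first, to place the letters recognised by these factors beside the genes. RefSeq promoter windows (GRCh38.p14) were matched by symbol for 9 of the 10 members, all but SLC7A11, in 16 windows. The 250 bases before each start site were searched on both strands for TGATGNAAN (the C/EBP-ATF response element bound by ATF4), TGACNNNGC (the antioxidant response element bound by NRF2 and BACH1) and CACGTG (the E-box bound by MYC, MITF and USF factors). The stretches below are 1 for each member with a motif at least partly outside annotated exons, with SLC38A2 added as the member that passed the test in WT cells. For SLC1A5 the window with the C/EBP-ATF match is shown and its other window with matches is not. They run 5′ to 3′ on the strand of the gene, with exon bases left out and motif letters in capitals.
SLC3A2, chr11:62881449-62881667, plus strand: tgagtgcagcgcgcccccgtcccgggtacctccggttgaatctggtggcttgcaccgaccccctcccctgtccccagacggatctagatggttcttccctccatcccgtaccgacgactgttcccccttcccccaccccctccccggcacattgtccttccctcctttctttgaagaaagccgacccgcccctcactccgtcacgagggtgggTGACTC
SLC7A5, chr16:87869508-87869757, minus strand: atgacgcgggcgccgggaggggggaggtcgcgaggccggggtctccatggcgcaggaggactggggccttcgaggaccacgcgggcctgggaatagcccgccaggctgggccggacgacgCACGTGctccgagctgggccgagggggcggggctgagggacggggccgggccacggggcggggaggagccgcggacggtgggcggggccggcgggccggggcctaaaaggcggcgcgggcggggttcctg
SLC7A1, chr13:29595689-29595938, minus strand: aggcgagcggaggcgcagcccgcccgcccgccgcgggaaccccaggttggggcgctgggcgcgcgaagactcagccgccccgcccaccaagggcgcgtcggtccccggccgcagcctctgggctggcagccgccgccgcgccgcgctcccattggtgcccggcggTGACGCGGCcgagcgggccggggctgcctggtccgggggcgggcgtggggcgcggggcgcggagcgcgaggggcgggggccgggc
SLC1A5, chr19:46784906-46785064, minus strand: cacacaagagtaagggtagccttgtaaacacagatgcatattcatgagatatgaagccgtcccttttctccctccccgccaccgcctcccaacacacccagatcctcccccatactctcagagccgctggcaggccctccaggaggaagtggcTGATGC
SLC43A1, chr11:57515787-57515952, minus strand: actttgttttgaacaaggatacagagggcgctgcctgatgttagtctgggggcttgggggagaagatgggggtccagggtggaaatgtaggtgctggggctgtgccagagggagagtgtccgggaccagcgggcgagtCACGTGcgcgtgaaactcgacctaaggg
SLC38A2, chr12:46372868-46373023, minus strand: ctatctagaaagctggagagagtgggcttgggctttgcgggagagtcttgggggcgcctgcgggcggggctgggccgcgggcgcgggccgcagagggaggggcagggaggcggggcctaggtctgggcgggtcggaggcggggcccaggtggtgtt

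The antioxidant element at SLC3A2 lay 37 bases before the start site and read tgactcagc, of which the printed stretch holds the first letters before an exon begins. The element at SLC7A1 lay 85 bases before its start. E-boxes lay 130 bases before the start of SLC7A5 and 112 before that of SLC43A1. In SLC1A5 an alternative window held an E-box and a reverse-strand antioxidant match, and another held the single C/EBP-ATF match of the set, tgatgcaag, 97 bases before an internal start, of which the printed stretch holds the first letters. Among the 16 member windows, 1 held the C/EBP-ATF motif, 3 the antioxidant motif and 3 the E-box. The windows of SLC38A1, SLC38A2, SLC1A4 and SLC6A9 held none of them. The C/EBP-ATF motif occurred in 3.13% of all 35116 promoter windows, the antioxidant motif in 10.9% and the E-box in 6.34%. A match describes the letters only.

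Library totals ran from 19963594 to 30348538 counts, and the 10 transporters made up 0.089% to 0.362% of each total. SLC48A1 had 1357 to 1945 counts in WT libraries and 55 to 313 in KO libraries. Erythroid markers, led by HBG2, summed in WT to 5731 to 11863 CPM (counts per 1000000 scaled counts) without butyrate and 16046 to 33544 with it. In KO the sums were 3474 to 6148, led by TFRC, and 4418 to 6025, led by HBG2. The single markers did not all differ in the same direction. In edgeR's quasi-likelihood test, 2 of 11 were called higher in untreated KO and 3 lower, beside 11.7% and 10.9% of all genes. In treated KO 0 were called higher and 3 lower, beside 10.1% and 8.89%. Of the 11 erythroid markers, 11 were above the limit of 3 counts in all WT libraries and 10 in all KO libraries. Markers of other lineages were far lower: at most 27.3 CPM summed for lymphoid, 133.7 for myeloid, 227 for megakaryocyte and 177 for fibroblast and epithelial genes, with MS4A1, S100A8, PF4, LUM, KRT5 and KRT14 at 0 in every library. The megakaryocyte sum was 33.4 to 61.0 CPM untreated and 118 to 227 treated in WT, and 15.6 to 55.4 and 81.7 to 118 in KO. These marker sums move with butyrate, and their part in the transporter values was not tested. One library stood apart: on the second principal component (20.9% of the variance), the first treated WT replicate had a score of 40.9, inside the untreated range of 15.3 to 75.6, while replicates 2 and 3 of both treated groups lay between -84.8 and -74.3. Replicate 1 of treated KO was at 4.21. For the members and gene lists, calls in the comparisons that use replicate 1 of treated WT are given with and without it where they differed. This library was picked out after the data were seen, so the fit without it is a description beside the main fit.

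**Figure D1:**
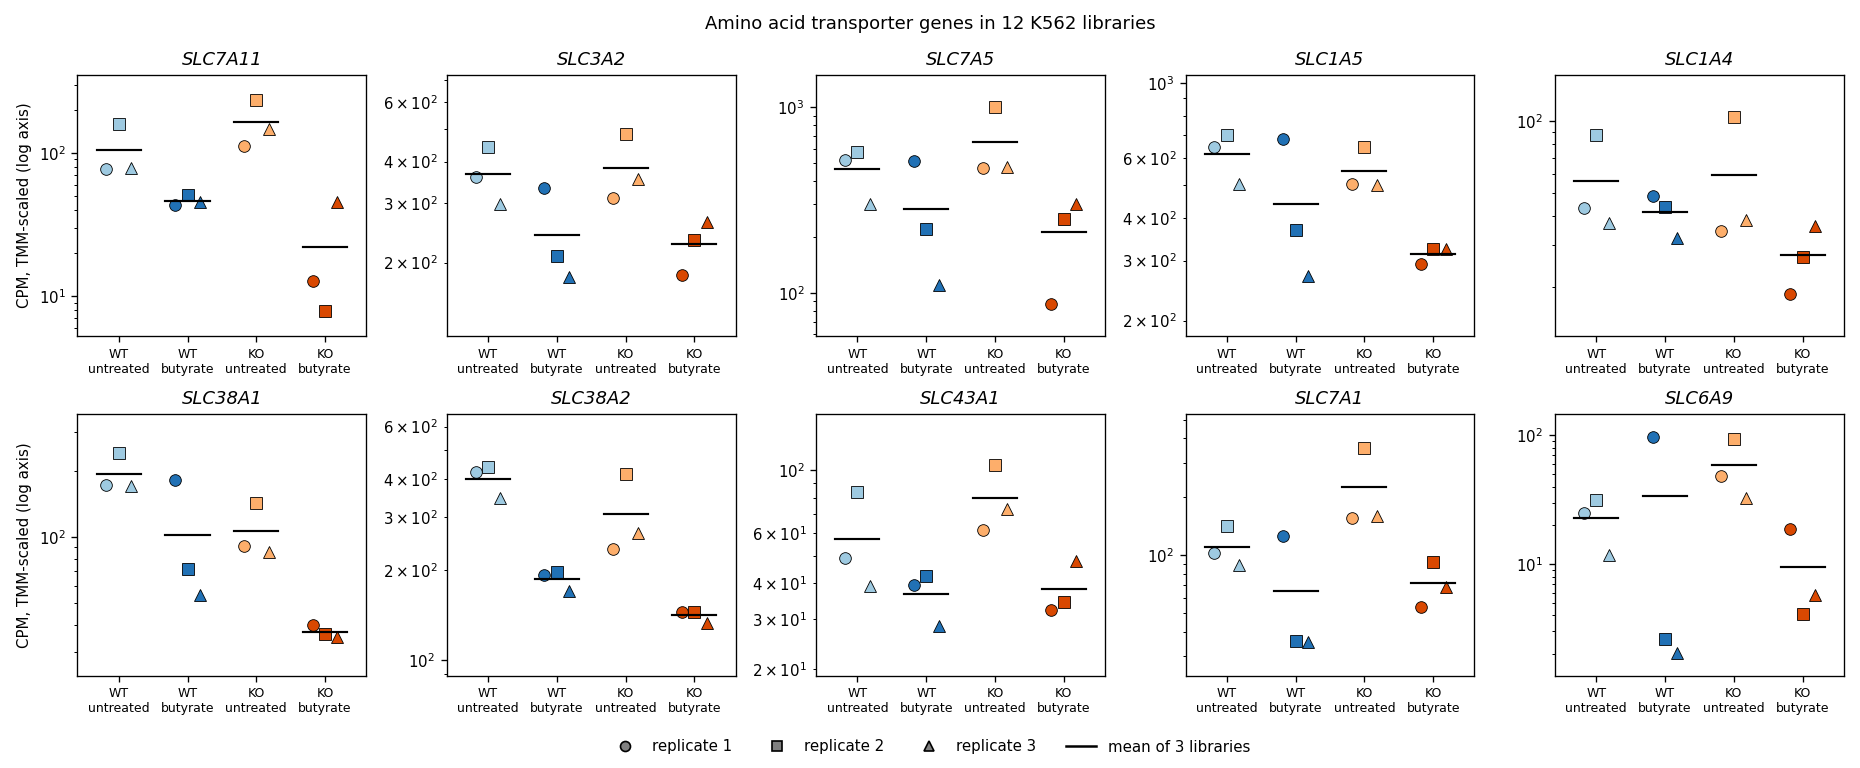
Each panel plots 1 gene as CPM after TMM scaling on a log axis, with each library as a point, its replicate number as the symbol and the group mean as a line. SLC38A2 was below every untreated WT value in all 3 treated WT libraries, while replicate 1 of treated WT stayed near the untreated values for SLC38A1, SLC1A5, SLC7A5 and SLC7A1 and reached 97.0 for SLC6A9.

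SLC7A11 lies on chromosome 4 (138164097 to 138242349, minus strand; GENCODE v29, GRCh38). It measured 77.7, 158 and 78.5 CPM in untreated WT replicates 1 to 3 and 43.0, 50.7 and 45.6 CPM in treated WT. Every treated library was below every untreated one, so the groups did not overlap. The mean was 105 ± 46.4 CPM (SD, n = 3) without butyrate and 46.4 ± 3.90 with it, a log2 change of -1.18 ± 0.53 (SE). It did not pass the test (adjusted p = 0.268, edgeR's quasi-likelihood test with Benjamini-Hochberg adjustment over all genes tested). Leaving out 1 library at a time gave -1.35 to -0.75, and none of the 12 fits passed.

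In HRG1-KO cells SLC7A11 measured 112, 234 and 148 CPM untreated and 12.7, 7.86 and 45.1 treated. All 3 treated KO values were lower than all 3 untreated ones, and replicate 3 was well above the other treated libraries. The log2 change was -2.91 ± 0.56, equal to 7.51-fold lower, or 13.3% of the untreated level. This value belongs to the contrast that chose the gene and is a description. Without replicate 3 of treated KO it was -3.99. ATF4 itself was 302, 307 and 742 CPM in the same 3 libraries, again highest in replicate 3, and its part in the SLC7A11 values was not tested.

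Between genotypes, SLC7A11 was on average 1.57-fold higher in untreated KO than in untreated WT, with a log2 difference of 0.65 ± 0.52 and overlapping groups. Under butyrate it was lower in KO by a log2 difference of -1.08 ± 0.53, also with overlap. Without replicate 3 of treated KO the latter was -2.19. The butyrate change in KO minus that in WT was -1.73 ± 0.75. These 3 values use KO libraries that chose the gene, and no test is read from them.

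SLC3A2 encodes CD98 heavy chain and lies on chromosome 11 (62856102 to 62888875, plus strand). It measured 360, 442 and 299 CPM in untreated WT and 335, 209 and 181 in treated WT. Replicate 1 of treated WT overlapped the untreated range and the other treated libraries were below it. SLC3A2 changed by -0.60 ± 0.27 on the log2 scale (adjusted p = 0.259) and, without replicate 1 of treated WT, -0.92 (adjusted p = 0.0475). KO libraries held 312, 483 and 355 CPM untreated and 184, 233 and 265 treated, a log2 change of -0.75 ± 0.27 with no overlap between the groups. As fitted, the heavy chain was at 59.3% of its untreated KO level and SLC7A11 at 13.3%.

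SLC7A5, encoding LAT1, lies on chromosome 16 (87830023 to 87869488, minus strand). It measured 520, 576 and 303 CPM in untreated WT and 515, 221 and 110 in treated WT. Replicate 1 of treated WT was again near the untreated values, and the groups overlapped. For SLC7A5 the log2 change was -0.72 ± 0.55 (adjusted p = 0.543), and -1.50 (adjusted p = 0.101) without that library. In KO the values were 470, 999 and 475 CPM untreated and 87.7, 251 and 303 treated, without overlap, a log2 change of -1.60 ± 0.56.

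SLC1A5, encoding ASCT2, the sodium-coupled exchanger that brings in glutamine, lies on chromosome 19 (46774883 to 46788594, minus strand). It measured 648, 704 and 502 CPM in untreated WT and 682, 370 and 270 in treated WT. Replicate 1 of treated WT lay inside the untreated range, and the other treated libraries lay below it. The log2 change of -0.49 ± 0.29 (adjusted p = 0.415) became -0.96 (adjusted p = 0.0273) without it. In KO the values were 504, 646 and 500 CPM untreated and 292, 324 and 325 treated, without overlap, a log2 change of -0.81 ± 0.29.

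SLC1A4, encoding ASCT1, which carries serine, alanine and cysteine, lies on chromosome 2 (64988477 to 65023865, plus strand). It measured 43.2, 87.2 and 37.2 CPM in untreated WT and 48.4, 43.5 and 32.4 in treated WT. The groups overlapped, and the log2 change of -0.43 ± 0.44 (adjusted p = 0.666) turned to 0.04 when replicate 2 of untreated WT was left out. The KO libraries gave 34.6, 105 and 38.2 CPM untreated and 18.6, 26.8 and 36.1 treated, a log2 change of -1.12 ± 0.44. It was the member whose KO groups overlapped.

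SLC38A2, encoding the neutral amino acid carrier SNAT2, lies on chromosome 12 (46358189 to 46372867, minus strand). It measured 422, 439 and 347 CPM in untreated WT and 192, 197 and 171 in treated WT. The treated libraries, replicate 1 included, were all well below the untreated ones. SLC38A2 fell by 1.11 ± 0.22 on the log2 scale, to 46.3% of the untreated level (edgeR quasi-likelihood test, adjusted p = 0.0238), and was lower in 3 of 3 pairs. Without replicate 1 of treated WT it fell by 1.14 (adjusted p = 0.0206). The fit of the 2 WT groups alone gave an adjusted p of 0.0610. Without replicates 1 or 2 of untreated WT, or 2 or 3 of treated WT, it was 0.0910, 0.0978, 0.0905 and 0.0880. In KO it measured 235, 417 and 265 CPM untreated and 145, 145 and 133 treated, a log2 change of -1.12 ± 0.22.

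SLC38A1, encoding SNAT1, sits on the same chromosome (46183063 to 46270017, minus strand). It measured 173, 242 and 170 CPM in untreated WT and 183, 71.5 and 54.3 in treated WT. Replicate 1 of treated WT overlapped the untreated libraries and the other treated libraries did not. For SLC38A1 the log2 change was -0.92 ± 0.38 (adjusted p = 0.221), and -1.64 (adjusted p = 0.00597) without replicate 1. KO values were 91.5, 143 and 85.5 CPM untreated and 40.0, 36.3 and 35.1 treated, a log2 change of -1.52 ± 0.38 without overlap.

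SLC7A1, encoding CAT1, the main arginine and lysine importer, lies on chromosome 13 (29509410 to 29595688, minus strand). It measured 102, 141 and 88.5 CPM in untreated WT and 125, 36.0 and 35.6 in treated WT. Replicate 1 of treated WT was within the untreated range. For SLC7A1 the log2 change was -0.76 ± 0.47 (adjusted p = 0.442), and -1.63 (adjusted p = 0.0245) without it. Without HRG1 it measured 156, 355 and 159 CPM untreated and 54.0, 92.4 and 68.4 treated, a log2 change of -1.64 ± 0.48 without overlap.

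SLC43A1, encoding LAT3, a sodium-independent carrier of leucine and related amino acids, lies on chromosome 11 (57484534 to 57515786, minus strand). It measured 49.1, 83.5 and 39.1 CPM in untreated WT and 39.3, 42.5 and 28.4 in treated WT. The groups overlapped, with a log2 change of -0.64 ± 0.30 (adjusted p = 0.293). Values in KO were 61.8, 105 and 72.9 CPM untreated and 32.3, 34.4 and 48.0 treated, a log2 change of -1.06 ± 0.30 without overlap.

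SLC6A9, encoding GLYT1, lies on chromosome 1 (43991500 to 44031467, minus strand). It measured 24.8, 31.3 and 11.8 CPM in untreated WT and 97.0, 2.60 and 2.03 in treated WT. Within the treated WT group, replicate 1 was the highest of all 12 libraries and replicates 2 and 3 were the lowest. The log2 change was 0.58 ± 1.11 (adjusted p = 0.842), -3.30 (adjusted p = 0.0197) without replicate 1, and -0.63 (adjusted p = 0.745) with the replicate number as a block. KO libraries measured 48.6, 94.4 and 32.9 CPM untreated and 18.7, 4.13 and 5.70 treated, a log2 change of -2.63 ± 1.17 without overlap.

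**Figure D2:**
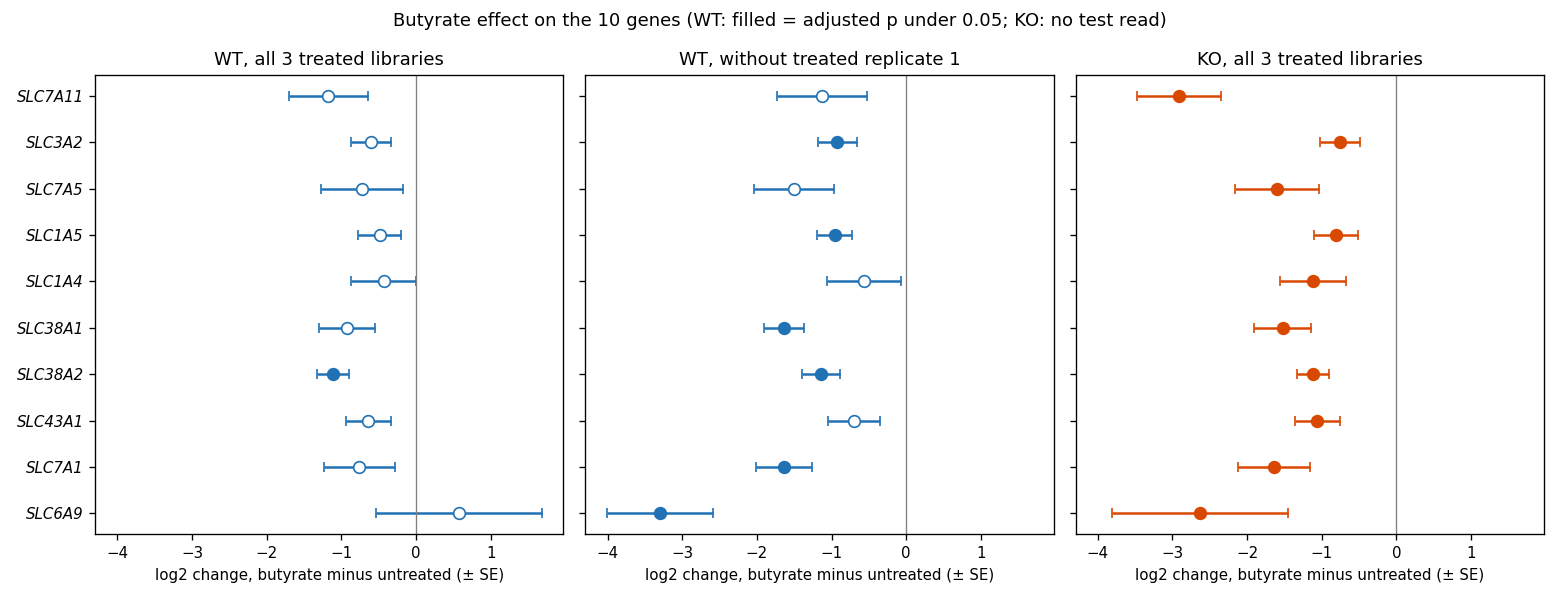
The log2 change with butyrate is plotted for each member, with SE bars, in WT (left), in WT without replicate 1 of the treated group (middle) and in KO (right); filled WT points passed the threshold. SLC38A2 is the member filled on the left, at -1.11, and 6 members are filled in the middle. The library left out in the middle was picked after the data were seen. In KO all 10 values are below 0, from -2.91 for SLC7A11 to -0.75 for SLC3A2, with no test read.

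Across the set, 1 of 10 members passed the test for butyrate in WT, beside 2.35% of all genes tested. The groups did not overlap, and were lower with butyrate, for 2 of 10 (SLC7A11 and SLC38A2), beside 10.4% of all genes. The log2 change was below 0 for 9 of 10 members, beside 47.5% of all genes, with a median of -0.68 against 0.02 over all genes. Without replicate 1 of treated WT, 6 of 10 fell and passed, beside 7.63% of genes in that fit, namely SLC3A2, SLC7A1, SLC38A1, SLC38A2, SLC1A5 and SLC6A9. SLC7A11 was not among them, at -1.13 (adjusted p = 0.262). The library left out here was picked after the data were seen. The count of 6 was the highest of the 12 fits that each left out 1 library, which gave 0 to 6. With the replicate block the count in WT was again 1 of 10, beside 8.61%. In KO, 2 of 10 passed beside 3.4% of all genes, and 5 of 10 with the replicate block beside 11.7%. Non-overlapping lower groups were found for 9 of 10 beside 11.8%, and changes below 0 for 10 of 10 beside 49.3%. The median KO change was -1.32 against 0 over all genes. Nothing is read from these KO counts, because that contrast chose the set. With library size in place of TMM scaling, the all-gene median in KO moved to 0.12 and that of the members to -1.21.

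**Figure D3:**
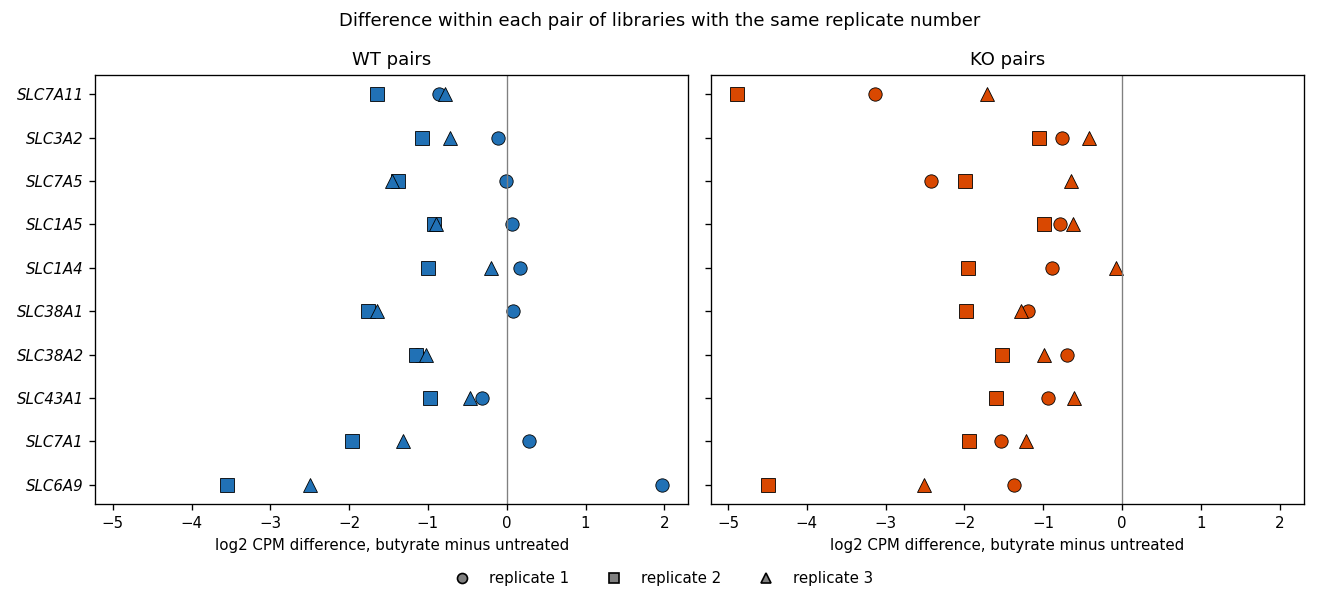
Points give butyrate minus untreated log2 CPM within pairs of libraries that carry the same replicate number, for WT on the left and KO on the right. In KO all 10 genes were lower in 3 of 3 pairs; in WT the pair numbered 1 was higher for SLC7A1, SLC38A1, SLC1A4, SLC1A5 and, by 1.96, SLC6A9.

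Genotype differences among the other 9 transporters were tested separately without and with butyrate. In untreated cells 0 of 9 passed in edgeR's quasi-likelihood test, beside 22.6% of all genes tested. An unadjusted p under 0.05 was found for 1 of 9, SLC38A1, beside 34.6%, and 0 of 9 passed in DESeq2, beside 24.9%. Untreated SLC38A1 was lower in all 3 KO libraries than in any WT library, by a log2 difference of -0.87 ± 0.38 (adjusted p = 0.121). SLC7A1 was higher in all 3 KO libraries than in any WT library, 1.02 ± 0.48 (adjusted p = 0.151). The 262 tested genes on chromosome 13, where SLC7A1 lies, had a median difference of 0.93, and 80.9% of them were higher in KO; the part of this in the SLC7A1 value was not tested. SLC6A9 was also higher without overlap, by 1.37 ± 1.12 (adjusted p = 0.428). Non-overlapping groups were found for 42.3% of all genes in this comparison. Without replicate 1 of treated WT, whose spread enters the shared fit, SLC7A1 (adjusted p = 0.0371) and SLC38A1 (adjusted p = 0.0113) passed, 2 of 9 beside 26.5% of genes in that fit.

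Under butyrate SLC38A1 was the 1 member of 9 that passed, beside 19% of all genes. The treated KO values of 35.1 to 40.0 CPM lay below the lowest treated WT value of 54.3. SLC38A1 was lower in KO by a log2 difference of -1.47 ± 0.38 (adjusted p = 0.0179), and by -0.77 (adjusted p = 0.0440) without replicate 1 of treated WT. The fit of the 2 treated groups alone gave an adjusted p of 0.0697. Leaving out replicate 2 or 3 of treated KO gave 0.0574 and 0.0554. SLC38A2 was the other member without overlap, lower in KO as were 16% of all genes, with a log2 difference of -0.40 ± 0.21 (adjusted p = 0.228). For SLC6A9 the difference was -1.83 ± 1.15 (adjusted p = 0.309) and turned to 2.02 (adjusted p = 0.0520) without replicate 1 of treated WT.

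**Figure D4:**
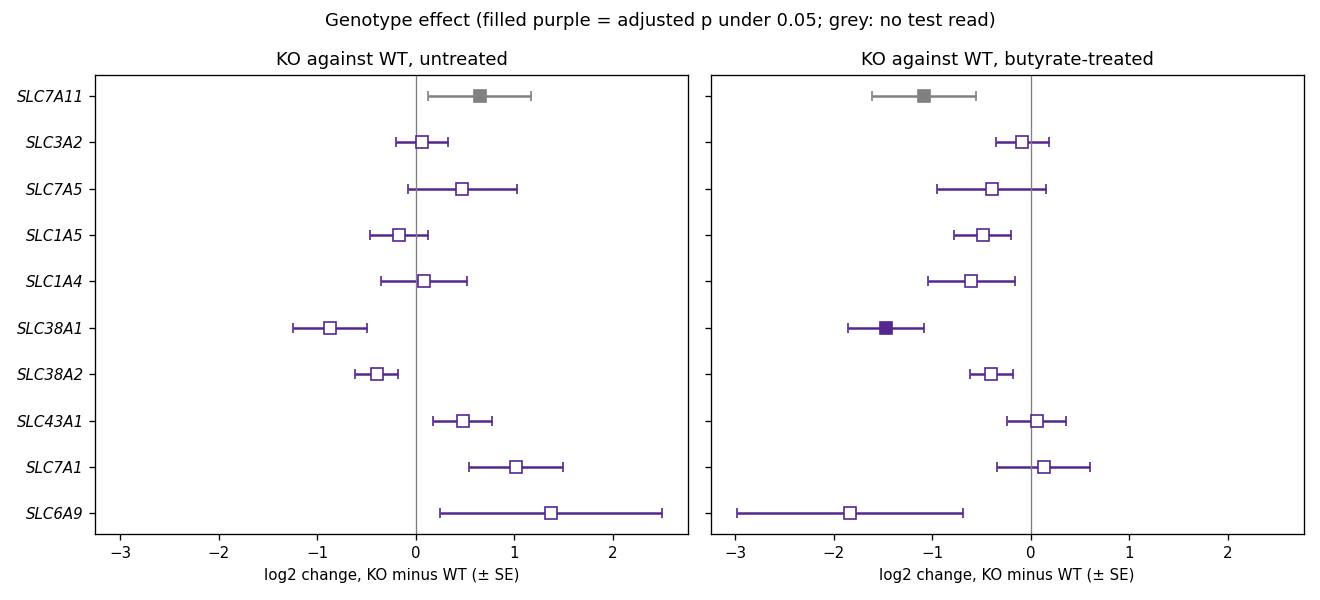
The log2 difference of KO minus WT is plotted for each member with SE bars, untreated on the left and butyrate-treated on the right, with SLC7A11 in grey because no test was read for it. SLC38A1 lies at -0.87 untreated and at -1.47 treated, where it is the member past the threshold.

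The change with butyrate did not differ by genotype past the threshold for any of the 9 tested members (edgeR, 0 of 9, beside 0% of all genes). At an unadjusted p under 0.05 there were 0 of 9 beside 4.16%, and in DESeq2 0 of 9 beside 0.532%. The estimates ran from -3.21 ± 1.60 for SLC6A9 to -0.0056 ± 0.30 for SLC38A2, which turned to 0.09 with library size in place of TMM scaling. Without replicate 1 of treated WT the estimate for SLC6A9 was 0.67. For SLC38A2 the changes in WT and KO stood at -1.11 and -1.12. These comparisons share libraries, so their values are not independent of each other.

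Levels can be set side by side once divided by exon length (CPM per kb, union of GENCODE v29 exons). SLC1A5 had the highest mean in each group, at 186 ± 31.2 and 132 ± 64.5 in WT without and with butyrate, and at 165 ± 24.9 and 94.2 ± 5.65 in KO. Its libraries overlapped those of SLC7A5, the next gene, in treated WT and in untreated KO, where SLC7A5 reached 210.6 and SLC1A5 193.8, and did not overlap in the other groups. By group mean SLC7A5, SLC3A2 and SLC38A2 followed in that order in all 4 groups. Their libraries overlapped between SLC7A5 and SLC3A2 except in untreated KO, and between SLC3A2 and SLC38A2 in the untreated groups. SLC7A11 was far down this order. It stood eighth in untreated WT at 10.9 ± 4.81, seventh in untreated KO at 17.1 ± 6.49, last in treated WT at 4.81 ± 0.40 and ninth in treated KO at 2.27 ± 2.10, each time overlapping its neighbours in the order. SLC3A2, its heavy chain, was at 43.9 ± 7.88 CPM per kb in treated KO, and SLC6A9 was last there at 1.85 ± 1.55.

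The members were not all equally alike across the libraries. Likeness was measured over the 12 libraries as the root mean square difference in log2 CPM after centring each gene, among 12474 genes with at least 50 counts on average. Genes were not scaled to equal spread, so the size of a change counts as well as its shape. The KO libraries that chose SLC7A11 are among the 12, so its distances are descriptions. The closest pair of members was SLC3A2 and SLC1A5, at 0.196. SLC7A11 was closest to SLC7A5, at 0.954, and farthest from SLC6A9, at 1.62. Many genes outside the set were nearer to SLC7A11: ATF3 (0.610), CTH (0.668), MTHFD1L (0.684), ASNSP1 (0.690) and PHGDH (0.716) were the nearest. ATF3 is a stress-induced transcription factor, CTH makes cysteine from cystathionine, MTHFD1L belongs to mitochondrial folate metabolism and PHGDH starts serine synthesis. CTH went from 67.7 ± 43.5 CPM in untreated WT to 33.0 ± 12.7 with butyrate, and from 74.2 ± 36.3 to 20.1 ± 7.47 in KO. ATF3 went from 32.5 ± 12.5 to 14.3 ± 0.80 in WT and from 23.8 ± 13.2 to 4.92 ± 3.77 in KO. SLC7A5, the nearest member, ranked 47.

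The gene lists below are read against the share of all genes called in the same way. For butyrate in WT that share was 2.35% in edgeR, 18% at an unadjusted p under 0.05, 8.06% in DESeq2, 8.61% with the replicate block and 7.63% without replicate 1 of treated WT. For butyrate in KO it was 3.4%, 19.8%, 8.6%, 11.7% and 6.38% in the same order. Between untreated genotypes edgeR called 11.7% of genes higher in KO and 10.9% lower, 22.6% in all, with 33% under the block and 26.5% without that library. Between treated genotypes it called 10.1% higher and 8.89% lower, 19% in all, with 29.2% under the block and 21.4% without that library. Chromosome-wide differences were worked out only for the chromosomes of the members. On chromosome 13 the median difference of KO minus WT was 0.93 untreated and 0.80 treated. The part of such differences in the genotype values of the list genes was not tested.

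Of 18 genes of the ATF4 and amino acid response, 0 passed for butyrate in WT in edgeR (beside 2.35% of all genes), 7 had an unadjusted p under 0.05 (beside 18%) and 2 passed in DESeq2 (beside 8.06%). A change below 0 was found for 14, and the median was -0.74. Without replicate 1 of treated WT, 2 of the 18, CEBPG and TRIB3, passed (beside 7.63%), and with the replicate block 2, CEBPG and EIF2AK2 (beside 8.61%). In KO, the contrast that chose the set, 2 of 18 passed, both lower: ATF3 at -2.27 ± 0.53 and CEBPG, a partner of ATF4, at -1.50 ± 0.32. All 18 were below 0, with a median of -1.25, and 7 of 18 passed with the replicate block (beside 11.7%). Without replicate 1 of treated WT, which is in the shared fit, 5 of 18 passed in KO (beside 6.38%). ATF4 changed by -0.29 ± 0.33 in WT (adjusted p = 0.707) and by -0.88 ± 0.33 in KO. In untreated cells ATF4 measured 386, 571 and 475 CPM in WT and 821, 793 and 872 in KO, without overlap. The difference of 0.80 ± 0.33 had an adjusted p of 0.109, and 0.0407 with the replicate block. EIF2AK1, encoding HRI, was lower in KO by -0.72 ± 0.16 untreated (adjusted p = 0.00623) and by -1.001 ± 0.16 treated (adjusted p = 0.00103). The part of any chromosome-wide difference in these EIF2AK1 values was not tested. VLDLR, a lipoprotein receptor, had 0 to 2 counts in untreated WT libraries and 35 to 153 in untreated KO, where it was called higher (edgeR, adjusted p = 0.00435). These were the only calls between untreated genotypes in edgeR, 1 of 18 higher and 1 lower, and EIF2AK1 was the only one between treated genotypes. There the block called 3 of 18, ATF3, EIF2AK1 and EIF2AK2 (beside 29.2% of all genes). DESeq2 called 4 of 18, ATF3, DDIT3, EIF2AK1 and PSAT1 (beside 21.6%). The fit without replicate 1 of treated WT called 2, EIF2AK1 and VLDLR (beside 21.4%).

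Genes known to regulate SLC7A11 were tested as a list of 11, of which 0 passed for butyrate in edgeR in WT or in KO (beside 2.35% and 3.4% of all genes). At an unadjusted p under 0.05 there were 1 and 2 of them (beside 18% and 19.8%), and DESeq2 called 0 and 1 (beside 8.06% and 8.6%). The replicate block called 0 in WT and 2 in KO, and without replicate 1 of treated WT 1, KEAP1, passed in WT and 0 in KO. BACH1, a heme-binding repressor, was lower in KO by -0.82 ± 0.18 untreated (adjusted p = 0.00642) and by -0.84 ± 0.18 treated (adjusted p = 0.00650), from 83.6 ± 7.73 CPM to 47.5 ± 2.13 in untreated cells. In each genotype comparison 2 of 11 were higher (OTUB1 and BAP1) and 2 of 11 lower (BACH1 and CD44), beside 11.7% higher and 10.9% lower of all genes untreated and 10.1% and 8.89% treated. The block called 6 of 11 between untreated genotypes (beside 33%) and 4 between treated ones, where leaving out replicate 1 of treated WT gave 5. NFE2L2, encoding NRF2, differed by -0.38 ± 0.33 untreated (adjusted p = 0.456) and by -0.61 ± 0.33 treated (adjusted p = 0.235). With butyrate in WT, NFE2L2 changed by -0.31 ± 0.33 (adjusted p = 0.681).

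Downstream of cystine import, 0 of 12 tested genes of cystine and glutathione metabolism passed for butyrate in WT, with a median of -0.42, and 0 of 12 in KO, with a median of -0.27 (edgeR, beside 2.35% and 3.4% of all genes). At an unadjusted p under 0.05 there were 7 in WT and 3 in KO (beside 18% and 19.8%), and DESeq2 called 0 and 1 (beside 8.06% and 8.6%). With the replicate block 1 passed in WT, AIFM2, and 1 in KO, CTH, both lower (beside 8.61% and 11.7%), and the same counts and genes came without replicate 1 of treated WT (beside 7.63% and 6.38%). Between untreated genotypes 1 of 12 was higher in KO and 3 lower, beside 11.7% and 10.9% of all genes. The 2 subunits of the enzyme that starts glutathione synthesis went in opposite directions. GCLC, the catalytic subunit, was at 17.5 ± 0.32 CPM in WT and 37.3 ± 5.42 in KO, a log2 difference of 1.09 ± 0.20 (adjusted p = 0.00184). GCLM, the modifier subunit, was at 114 ± 3.24 CPM in WT and 62.1 ± 8.43 in KO, a difference of -0.88 ± 0.20 (adjusted p = 0.00770). GSR, which regenerates reduced glutathione, differed by -1.27 ± 0.17 (adjusted p = 0.000182) and AIFM2 by -1.54 ± 0.42 (adjusted p = 0.0194). Under butyrate GCLM, GSR and ACSL4, 3 of 12, were lower in KO (beside 8.89%) and 0 higher (beside 10.1%), and the block added AIFM2.

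Other amino acid carriers of the plasma membrane formed a further list. Of 20 listed, 11 passed the count filter, and 1 of 11 rose with butyrate in WT while 0 fell (edgeR, beside 2.35% of all genes called). DESeq2 called 3, adding SLC16A10 and SLC38A3 (beside 8.06%), the replicate block 2, adding SLC16A10 (beside 8.61%), and the fit without replicate 1 of treated WT 3 of 12, adding both (beside 7.63%). SLC7A8, called in each of these fits, encodes LAT2, which pairs with the same heavy chain as SLC7A5 and SLC7A11. It measured 29.5, 20.6 and 40.6 CPM in untreated WT and 211, 191 and 137 in treated WT, with all treated libraries, replicate 1 included, far above the untreated ones. SLC7A8 rose by 2.57 ± 0.35 on the log2 scale (adjusted p = 0.00534). In KO it measured 242, 129 and 156 CPM untreated and 561.7, 619 and 317 treated, a log2 change of 1.51 ± 0.33. It was higher in KO by 2.53 ± 0.34 untreated (adjusted p = 0.000227) and by 1.48 ± 0.33 treated (adjusted p = 0.00812). SLC16A10 and SLC36A4 were also higher in KO in both comparisons, SLC38A3 untreated and SLC7A7 treated, making 4 of 11 higher and 0 lower in each (edgeR, beside 11.7% and 10.9% of all genes untreated and 10.1% and 8.89% treated). Between untreated genotypes SLC6A6, at -1.56 ± 0.59 (adjusted p = 0.0767), was called lower with the replicate block, without replicate 1 of treated WT and in DESeq2. Between treated genotypes the block added SLC38A3, and without that library SLC6A15 was called and SLC7A7 was not.

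Inside the cell, 0 of 9 listed lysosomal transporters passed in any of the 5 contrasts in edgeR without the replicate block. At an unadjusted p under 0.05 there were 2 with butyrate in each genotype, 2 between untreated genotypes and 0 in the remaining contrasts, beside 18%, 19.8%, 34.6%, 31.6% and 4.16% of all genes. SLC29A3, at -0.94 ± 0.35 between untreated genotypes (adjusted p = 0.0710), was called lower there in DESeq2, with the block and without replicate 1 of treated WT, and the last of these called SLC38A10 lower between treated genotypes. Of 9 mitochondrial carriers, 0 passed for butyrate in WT in edgeR, 5 had an unadjusted p under 0.05 (beside 18%) and DESeq2 called 4 (beside 8.06%). The block called 3 of 9 there (SFXN1, SLC25A13 and SLC25A29, beside 8.61%), and so did the fit without replicate 1 of treated WT (SFXN1, SFXN3 and SLC25A13, beside 7.63%). SLC25A29, which carries basic amino acids, passed in KO at 1.88 ± 0.35 and was higher in KO by 1.18 ± 0.35 untreated (adjusted p = 0.0294) and by 1.72 ± 0.35 treated (adjusted p = 0.00475). SLC25A15, which carries ornithine, was higher in KO by 1.08 ± 0.19 untreated (adjusted p = 0.00151) and by 0.80 ± 0.19 treated (adjusted p = 0.0117). These 2 of 9 were the calls in each genotype comparison in edgeR, beside 22.6% and 19% of all genes. The part of chromosome-wide differences in their values was not tested. The block called 4 of 9 in KO (beside 11.7%), 3 between untreated genotypes (beside 33%) and 5 between treated ones (beside 29.2%), and the fit without replicate 1 of treated WT called 3 in KO (beside 6.38%). Of 21 tested genes of amino acid sensing by mTORC1, 0 passed for butyrate in WT in edgeR (5 at an unadjusted p under 0.05, beside 18%, and 2 in DESeq2, beside 8.06%) and 1 of 21, SESN3, passed in KO, higher. The block called SESN3 in WT and 3 of 21 in KO, and without replicate 1 of treated WT 2 passed in each, CASTOR2 and MLST8 in WT. In each genotype comparison 1 of 21 was higher (RRAGD) and 3 lower (SESN3, CASTOR2 and FLCN), 4 of 21 beside 22.6% of all genes untreated and 19% treated. The block called 6 of 21 untreated (beside 33%) and 5 treated, and between treated genotypes the fit without that library called MLST8 and did not call FLCN.

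Neighbouring and copied sequences touch some of these counts, since strand handling in the counting is not given in the sources used here. An antisense transcript, SLC7A11-AS1, overlaps SLC7A11 and had 0 to 108 counts per library. CCDC24 overlaps SLC6A9 on the other strand with 25 to 217 counts, against 61 to 1984 for SLC6A9 itself. SLC7A5P2, a partial copy of SLC7A5, had 124 to 357 counts beside 1909 or more for SLC7A5.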

How the data were processed

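Total RNA from 12 K562 samples, 3 libraries in each of 4 groups, was sequenced. The authors deposited raw counts per gene, in 28278 rows, 6319 of them at 0 throughout. Per the submitters' processing notes, reads were checked with FastQC 0.12.1 and aligned with STAR 2.7.11b to hg38. The counting tool, annotation, strand setting and filters are not given in the sources used here. Groups and replicate numbers came from the sample titles. Totals were 19963594 to 30348538 counts, which puts the limit of 3 counts at 0.0989 to 0.150 CPM (counts per 1000000, before scaling).

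From these counts, 15805 genes passed filterByExpr (minimum count 10) and were TMM scaled. They were tested with edgeR 4.0.16 (quasi-likelihood test, R 4.3.3) in 1 fit of all 12 libraries, with p-values adjusted by Benjamini-Hochberg over all genes tested and a threshold of 0.05. The common biological coefficient of variation was 0.384. SE is the size of the log2 change divided by the root of the F statistic. DESeq2 1.42.0, other scalings and filters, the 2 groups alone, a replicate block and leaving out libraries were the alternatives. The method was tested on simulated data. No 2 replicates were alike enough to be 1 library (smallest chi-square per degree of freedom 37.2).

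Replicate numbers were taken as pairing the libraries, from the data: deviations from group means correlated between same-numbered libraries at 0.195 to 0.409 (butyrate, WT), 0.147 to 0.468 (butyrate, KO), 0.210 to 0.361 (genotype, untreated) and 0.315 to 0.595 (genotype, treated). Between differently numbered libraries they ran, in the same order, from -0.439 to 0.186, -0.441 to 0.123, -0.288 to 0.069 and -0.512 to 0.343. The last range overlaps that of the same-numbered libraries. The main fit did not use the pairing. With the replicate number as a block, 1 of 10 members passed for butyrate in WT, 5 of 10 in KO.

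All 10 members are named. Genes of the other lists could be named where they passed (at most 4 per list and comparison), with EIF2AK1, ATF4, BACH1 and NFE2L2 always, and the 5 genes most like SLC7A11. Some items the rule covers are not reported here. List genes that passed only in an alternative (such as SLC29A3, TRIB3, SLC6A6 and KEAP1) were chosen after their values were seen. The members, lists and tests were chosen with earlier results of these data known. Lengths, places and overlaps are from GENCODE v29 on GRCh38, which may differ from the annotation counted.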

Additional observations from a re-analysis of the deposited data

Results flagged for a closer look

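SLC7A11 stood in opposite order between the genotypes without and with butyrate. Untreated, it was higher in KO in 3 of 3 same-numbered pairs, by 0.53, 0.56 and 0.91 on the log2 CPM scale. Treated, it was lower in KO in 3 of 3, with differences of -1.75, -2.68 and -0.02. The fitted butyrate change in KO minus that in WT was -1.73 (log2). The difference was not tested, since the gene was chosen on these KO libraries, and the third treated pair is close to 0.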

How the results depend on the processing

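The 50 member values were compared with their main fit in up to 20 alternative settings, 990 comparisons in all, and 916 were labelled unchanged. For values read with a test, unchanged meant the same direction and the same side of the threshold. For values read without a test it meant a move smaller than the SD within groups, so a call could still change. The count of members called for butyrate in WT was 1, and it was 0 in the fit of the 2 groups alone. Without the 4 libraries numbered 1 (chosen after seeing the data) it was 6, beside 11.4% of genes in that fit. Leaving out 1 library gave 0 to 6, with the 6 beside 7.63% of genes. For butyrate in KO the count of 2 became 4 with no filter, 5 with DESeq2 (beside 8.6% of genes) and 5 with the replicate block (beside 11.7%). It was 5 without the libraries numbered 1 (beside 13.1%) and 0 to 6 leaving out 1 library (the 6 beside 6.38%). Nothing is read from these KO counts, because that contrast chose the set. Between untreated genotypes the count of 0 became 3 with the 2 groups alone and 3 without the libraries numbered 1 (beside 26.2% of genes). Leaving out 1 library gave 0 to 2, with the 2 beside 26.5%. Between treated genotypes the count of 1 became 0 with the 2 groups alone, 2 without the libraries numbered 1 (beside 24.7% of genes) and 0 to 1 leaving out 1 library. All these counts cover the 10 members, SLC7A11 included. Without replicate 3 of treated KO the treated-genotype call was SLC7A11, for which no test is read. The replicate block changed no other call of a member. Directions (log2) that turned: SLC6A9 for butyrate in WT, -0.63 with the replicate block and -3.23 without the libraries numbered 1. For treated genotypes, SLC3A2 was 0.049 with library size alone, and without the libraries numbered 1 SLC3A2 was 0.33, SLC7A5 0.72, SLC1A5 0.00031 and SLC6A9 1.07. For the difference in butyrate response without those libraries, SLC3A2 was 0.17, SLC7A1 0.0021, SLC38A1 0.030 and SLC1A5 0.092. SLC38A2 there was 0.017 with DESeq2 size factors, 0.091 with library size, 0.011 with at least 10 counts in every library, 0.017 in DESeq2 and 0.018 with the replicate block. Leaving out 1 library gave, for butyrate in WT, SLC1A4 -0.65 to 0.041 and SLC6A9 -3.30 to 1.13. For untreated genotypes it gave SLC3A2 -0.16 to 0.22, SLC7A5 -0.0046 to 0.66 and SLC1A4 -0.64 to 0.56. For treated genotypes it gave SLC3A2 -0.28 to 0.21, SLC7A5 -0.80 to 0.36, SLC7A1 -0.18 to 0.99, SLC43A1 -0.15 to 0.18 and SLC6A9 -2.78 to 2.02. For the difference in response it gave SLC3A2 -0.32 to 0.17, SLC38A1 -0.90 to 0.12, SLC38A2 -0.17 to 0.29, SLC1A4 -1.16 to 0.015, SLC1A5 -0.57 to 0.16 and SLC6A9 -4.15 to 0.67. The cause was not tested. The 2 groups alone cannot give the difference in response. With 3 libraries a group, an exact permutation test of 1 gene cannot go below 0.1. SLC6A9 had as few as 61 counts in a library.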
